A study of Arabidopsis thaliana with 18 samples.

Results

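The transcript levels of shoots were compared between Arabidopsis thaliana plants whose roots had been exposed to ytterbium (Yb) and plants that had not. All plants were wild type of the Col-0 accession, grown without soil in aerated nutrient solution and 6 weeks old when the exposure began. Ytterbium shoots came from plants given 5 µM YbCl3 for 72 h, lanthanum (La) shoots from plants given 5 µM LaCl3 for 72 h, and control shoots from plants given neither salt. In every group, the controls included, the solution of these 72 h held no phosphate, so all differences are between plants deprived of phosphate. Each group had 3 replicates, each a pool of 3 plants, and roots were collected from the same exposures. The comparison took every gene with a normalised value of at least 1 in at least 3 of the 9 shoot libraries, which kept 21967 of the 28991 genes in the table. Values are reads divided by a size factor per library, called normalised reads below, and are not corrected for gene length, so they compare libraries and not genes.

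Ytterbium and lanthanum are rare earth elements, present in solution as trivalent cations that form poorly soluble phosphates, and lanthanum has long been used in plant physiology as a blocker of calcium channels. Iron is a cofactor of many of the electron carriers of the chloroplast, as heme or as iron-sulfur clusters, and leaves hold much of a plant's iron there. When leaves of Arabidopsis sense too little iron, a set of bHLH transcription factors and the small IRON MAN (IMA) peptides increase, while the transcripts of ferritins, which store iron inside plastids, decrease. The E3 ubiquitin ligase BRUTUS (BTS) restrains that response, and the transporter OPT3 loads iron into the phloem.

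Of the 21967 genes, 9 passed the test (0.041%), all of them lower in ytterbium shoots than in control shoots. The test was limma's moderated test on log2(value + 0.5) over the 9 shoot libraries, with p-values adjusted over all genes tested (Benjamini-Hochberg) and a threshold of 0.05. No gene passed it as higher (0%), against 1011 genes higher and 844 lower at an unadjusted p under 0.05 (4.6% and 3.84% of genes). On the recovered reads, edgeR called 10 genes (0.0455%), 1 of them higher (0.00455%), and DESeq2 called 101 (0.46%), 49 of them higher (0.223%) and 52 lower (0.237%). The median difference over all genes tested was 0.00 on the log2 scale, and the groups did not overlap for 14.1% of genes (6.92% higher and 7.18% lower). Leaving out the third control library raised limma's count to 166 (108 higher and 58 lower) and leaving out the first raised it to 21, with 12 higher and 9 lower, while 6 genes passed without the second control, the first ytterbium or the third ytterbium library and 1 passed without the second ytterbium library. A fit of the 6 ytterbium and control libraries alone called 13 genes, 8 higher and 5 lower, of which 4 were among the 9.

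The shoot libraries held 12.44 to 16.35 M reads and showed a high level of genes of the photosynthetic apparatus. The 23 members of a photosynthesis list summed to 904040 to 1021000 normalised reads in ytterbium shoots, 979220 to 1134300 in lanthanum shoots and 1004400 to 1303900 in control shoots. Root hair and endodermis genes were nearly absent: the 9 root markers summed to 101 to 136 in ytterbium shoots and 82.9 to 126 in control shoots, and EXPA7 and RHD6, which mark root hair cells, were at 0 in all 9 shoot libraries. These are whole shoots, so fewer cells of a type and less RNA per cell cannot be told apart. Weights that limma gave to each library from its spread within its group were lowest for control 2 (0.561) and control 3 (0.66).

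Of the 9 genes that fell, NEET and FER4 belong to a list of iron storage and excess genes, and 3 others encode iron proteins or the machinery that builds their clusters. NEET (AT5G51720), a chloroplast protein with a 2Fe-2S cluster that is linked to iron balance and reactive oxygen, had 429, 351 and 463 in ytterbium shoots, 321, 389.9 and 363 in lanthanum shoots and 1032, 819.8 and 1050.2 in control shoots. The ytterbium values lay far below the 3 controls and within reach of the lanthanum values. NEET was 2.34-fold lower by the ratio of means, and the fitted log2 difference was -1.22 ± 0.12 (SE, n = 3 each, limma adjusted p = 0.0052). It was the one gene that stayed past the threshold whichever of the 6 libraries was left out, although a moderation without a mean-variance trend gave an adjusted p of 0.153.

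FD2 (AT1G60950), the main leaf ferredoxin, which takes electrons from photosystem I, had 13166, 13181 and 14080.1 normalised reads in ytterbium shoots, against 21115, 26662 and 23516 in control shoots. The ytterbium libraries lay closely together and all were below the lowest control. The log2 difference was -0.81 ± 0.09 (adjusted p = 0.0052), with an adjusted p of 0.0712 when the second ytterbium library was left out. Lanthanum shoots had 11991, 12654 and 13497.

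SUFB (AT4G04770), the scaffold on which the plastid SUF machinery builds iron-sulfur clusters, had 2379, 1909.8 and 2113 in ytterbium shoots and 3004, 3269.9 and 3710.2 in control shoots. No ytterbium library reached the lowest control. SUFB fell by 1.56-fold (log2 difference -0.64 ± 0.09, adjusted p = 0.0373), and its adjusted p was 0.078 without the second control, 0.244 without the second ytterbium library and 0.2 without the third.

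FER4 (AT2G40300), a ferritin, had 252, 243 and 295 in ytterbium shoots, 229, 223 and 234 in lanthanum shoots and 503, 635 and 892 in control shoots. Its level was alike in all 6 exposed libraries and spread widely over the controls, where the third library was highest. The difference was -1.33 ± 0.17 on the log2 scale (adjusted p = 0.0373). It was past the threshold without the first or the third control library, while the adjusted p was 0.217 without the second control and 0.0688 to 0.244 without any 1 ytterbium library, and edgeR gave 0.0658.

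SAPX (AT4G08390) encodes the stromal ascorbate peroxidase, a heme enzyme that removes hydrogen peroxide in chloroplasts. Ytterbium shoots had 1164, 1101 and 1295 and control shoots had 1631, 1875 and 1707, without overlap. Its log2 difference of -0.55 ± 0.09 was the smallest of the 9 (adjusted p = 0.046), with adjusted p-values of 0.138 without the second control and 0.0618 to 0.314 without any 1 ytterbium library.

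The other 4 genes that fell are in none of the iron lists. AT3G43670, a member of the copper amine oxidase family, which oxidises polyamines, had 432, 389 and 468 in ytterbium shoots and 727, 799.9 and 954 in control shoots (log2 difference -0.94 ± 0.11, adjusted p = 0.0052). Every ytterbium library was below every control, and the adjusted p was 0.0712 without the second ytterbium library. AT3G49160, a member of the pyruvate kinase family, had 22.3, 11.6 and 23.5 against 64.3, 75.6 and 135, the largest fall of the 9 at -2.22 ± 0.32 (adjusted p = 0.037). Its adjusted p was 0.0528 to 0.144 when the second control or any 1 ytterbium library was left out.

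MEE3 (AT2G21650), a small MYB-related transcription factor of the RADIALIS-like group, had 100.3, 89.6 and 121 in ytterbium shoots and 259, 177 and 288 in control shoots, with no overlap between the groups. The log2 difference was -1.20 ± 0.18 (adjusted p = 0.0373), and the adjusted p lay between 0.0547 and 0.244 without the first control or any 1 ytterbium library. AT1G66100, annotated as a thionin, one of the small cysteine-rich peptides made in defence, had 571, 506 and 396 in ytterbium shoots, 842, 797 and 682 in lanthanum shoots and 1188, 1080.2 and 943 in control shoots. Here the 3 lanthanum libraries lay between the ytterbium and the control libraries. The ytterbium difference was -1.13 ± 0.14 (adjusted p = 0.0266), with 0.217 without the second control and 0.137 without the second ytterbium library. AT1G66100, AT3G49160, SUFB and FER4 overlap another annotated gene in the genome, and because the strand setting of the counting is not given in the sources used here, reads of each pair cannot be told apart. The same holds for LHT7, BHLH101, BHLH38, FER1, APR3, BCA3 and AT5G23700 below. Overlap was looked up only for the 33 genes named by rule, and not for the other genes given with values.

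In lanthanum shoots, 19 genes passed against the same 3 control libraries (0.0865%), 14 of them lower (0.0637%). Of the 9 genes above, 8 were among these, with log2 differences of -1.43 for NEET, -0.90 for FD2, -0.75 for SUFB, -1.52 for FER4, -0.68 for SAPX, -0.98 for AT3G43670, -2.31 for AT3G49160 and -1.25 for MEE3. AT1G66100 was the one that did not (-0.47 ± 0.14, adjusted p = 0.355). Both comparisons use the same controls, so a control that stands apart moves them together.

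**Figure D1:**
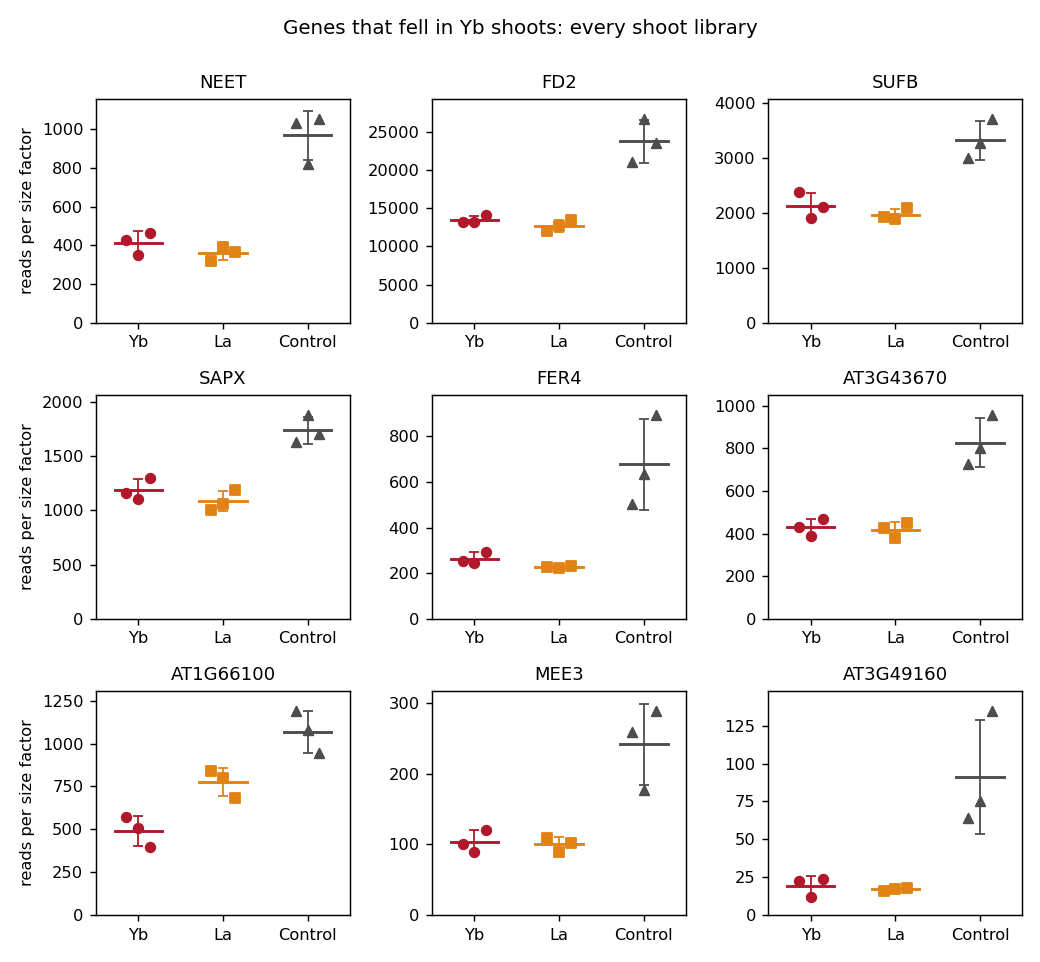
Normalised reads (reads per size factor, linear axes from 0) of the 9 genes that fell in ytterbium shoots, in each library of ytterbium, lanthanum and control shoots; horizontal lines are group means and bars are ± 1 SD (n = 3). In every panel the 3 ytterbium libraries lie below the 3 controls, and AT1G66100 is the gene whose lanthanum libraries lie between them.

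No gene rose, and the genes nearest to doing so were taken by the smallest p among genes with a mean of at least 10 normalised reads in the higher group. SIP2 (AT3G57520), of the raffinose synthase family, had 1376, 1185 and 1061 in ytterbium shoots and 771, 796 and 876 in control shoots (log2 difference 0.56 ± 0.09, adjusted p = 0.0507). The groups did not overlap, and edgeR did call it. LHT7 (AT4G35180), related to lysine and histidine transporters, had 47.2, 58.8 and 51.4 against 23.7, 14.7 and 22.6 (1.37 ± 0.23, adjusted p = 0.0867), and OXS3 (AT5G56550), which gives tolerance to heavy metals and oxidative stress when overproduced, had 172, 244 and 264 against 108, 99.7 and 137 (0.97 ± 0.17, adjusted p = 0.092). In both, every ytterbium library was above every control, and OXS3 was also above every lanthanum library (91.2, 108 and 108).

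The remaining 3 of these 6 genes belong to iron handling or overlap a gene that does. BHLH101 (AT5G04150), a bHLH factor of the iron deficiency response, had 19.7, 27.9 and 27 in ytterbium shoots and 2.97, 2.1 and 2.15 in control shoots (3.12 ± 0.54, adjusted p = 0.092). OPT3 (AT4G16370) had 1724, 2104 and 1879 against 1105, 975 and 832 (0.98 ± 0.15, adjusted p = 0.106). AT2G30760 had 13.7, 12.5 and 16.5 against 3.96, 3.15 and 3.23 (1.90 ± 0.35, adjusted p = 0.104). AT2G30760 overlaps the IMA3 locus AT2G30766, and reads of these genes cannot be told apart.

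In the list of 22 genes of iron deficiency signalling, all of which were tested, 0 rose and 0 fell under limma (beside 0% and 0.041% of all genes), with a median log2 difference of 0.89 against 0.00 over all genes tested. At an unadjusted p under 0.05, 14 were higher (against 4.6% of all genes) and 1 lower (against 3.84%), edgeR called 0 and DESeq2 called 11 as higher (against 0.223%). A limma fit of the 6 ytterbium and control libraries alone called 6 members as higher, namely IMA1, IMA2, BTS, OPT3, BHLH101 and FRO3. Ytterbium and control libraries did not overlap for 14 members on the higher side (63.6%, against 6.92% of all genes) and for 1 on the lower side (4.55%, against 7.18%). The median kept its sign and lay between 0.85 and 1.00 when any 1 of the 6 libraries was left out, with at most 1 member past the threshold. This list and those below were chosen with earlier results of these data known. Their shares beside all genes are therefore descriptive, and no support is drawn from them.

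The IMA peptides, which promote the uptake response to low iron, were among the members with the largest differences. IMA3 (AT2G30766) had 786, 968 and 802 in ytterbium shoots, 1292, 1376 and 835 in lanthanum shoots and 96.9, 159.6 and 38.7 in control shoots. All 3 ytterbium libraries exceeded the highest control by a wide margin, and the third lanthanum library was the lowest of its group. The log2 difference between ytterbium and control was 3.32 ± 0.50 (adjusted p = 0.164, DESeq2 adjusted p = 1.83e-07), and without the third control library limma gave 0.0228. IMA1 (AT1G47400) had 129, 175 and 146 against 23.7, 37.8 and 14 (2.65 ± 0.51, adjusted p = 0.257), and IMA2 (AT1G47395) had 112, 189 and 189 against 13.8, 19.9 and 18.3 (3.17 ± 0.50, adjusted p = 0.164). IMA1 and IMA2 are close copies, so reads may have been divided between them.

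Among the transcription factors, BHLH38 (AT3G56970), BHLH39 and BHLH100, whose products drive iron uptake genes, were almost unread in control shoots. BHLH38 had 9, 17 and 37 reads in ytterbium shoots, 46, 61 and 13 in lanthanum shoots and 0, 2 and 0 in control shoots. The summed ratio of ytterbium to control was 27.2 (95% interval 7.22 to 229, for counting error only), and limma gave an adjusted p of 0.145. BHLH100 had 12, 15 and 56 reads against 0, 2 and 0 (ratio 35.8, interval 9.61 to 301), and BHLH39 had 2, 6 and 5 against 0, 2 and 0 (ratio 5.61, interval 1.27 to 51.2). All control reads of this trio came from the second control library. These 3 genes entered the test through exposed libraries alone, so they had to be higher there. BHLH38 and BHLH100 are among the 14 members that did not overlap. The median and the other counts of the list also include these 3 genes, and no support is drawn from their part in them or from their ratios.

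PYE (AT3G47640), a bHLH factor that represses iron storage and transport genes under iron deficiency, had 190.4, 189.8 and 189.8 in ytterbium shoots and 73.2, 111 and 100.1 in control shoots (1.02 ± 0.21, adjusted p = 0.211). BTS (AT3G18290) had 1479, 1911 and 1758 against 928, 989.9 and 847 (0.89 ± 0.20, adjusted p = 0.322). Neither overlapped between the groups, and neither passed under limma, while DESeq2 gave adjusted p-values of 0.00404 for PYE and 0.00029 for BTS. NAS4 (AT1G56430), which makes the iron chelator nicotianamine, had a log2 difference of 0.86 ± 0.21 (adjusted p = 0.347), ZIF1, a vacuolar carrier of nicotianamine, of 0.82 ± 0.25 (adjusted p = 0.47) and FRO3, a mitochondrial ferric reductase, of 0.90 ± 0.31 (adjusted p = 0.518). The upstream bHLH factors of the pathway, which are regulated mainly at the level of the protein, had small log2 differences: ILR3 was -0.05 ± 0.07, BHLH34 -0.11 ± 0.14, BHLH104 -0.09 ± 0.07, BHLH115 -0.12 ± 0.08 and BHLH121 -0.09 ± 0.09. BHLH11, a repressor of the response, was lower without passing the test (-0.91 ± 0.39, adjusted p = 0.552).

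**Figure D2:**
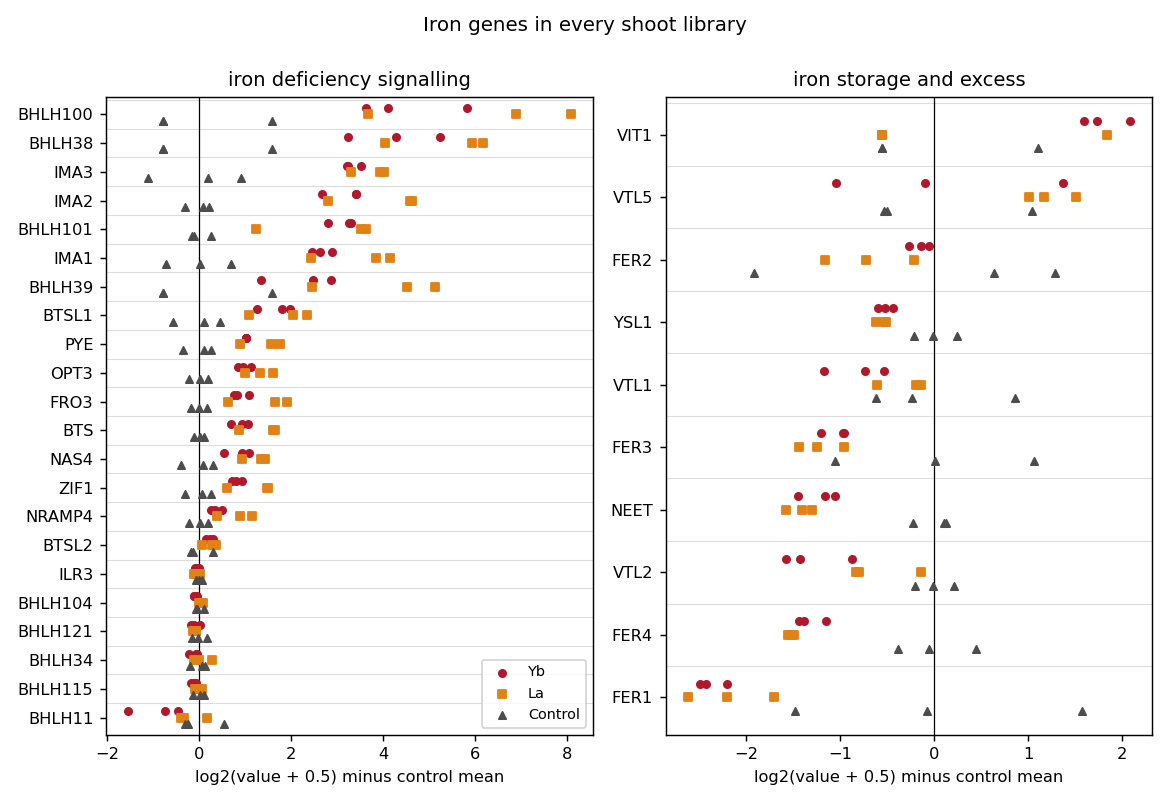
Each library's log2(value + 0.5) minus the control mean for the 22 genes of iron deficiency signalling (left) and the 10 of iron storage and excess (right), with ytterbium as circles, lanthanum as squares and control as triangles. IMA1, IMA2 and IMA3 lie about 3 log2 units to the right of the controls in ytterbium shoots, FER4 and NEET lie to their left, and the FER1 controls are spread over about 3 log2 units.

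The list of 10 genes of iron storage and excess had a median of -0.93, with 0 that rose and 2 that fell (NEET and FER4), beside 0.041% of all genes that fell. Its members too were chosen with earlier results of these data known, so its shares beside all genes are no independent support. Ytterbium and control libraries did not overlap on the lower side for 5 (50%, against 7.18% of all genes) and on the higher side for 1, VIT1 (10%, against 6.92%), and DESeq2 called 5 as lower (against 0.237% of all genes). FER1 (AT5G01600), the main ferritin of leaves, had 526, 505 and 616 in ytterbium shoots, 873, 461 and 618 in lanthanum shoots and 1016, 2684 and 8429 in control shoots. Its control values spread over a wide range with the third highest, and the ytterbium values lay below all of them. The log2 difference was -2.38 ± 0.73 (adjusted p = 0.487, DESeq2 adjusted p = 0.0113), and -2.38 became -1.59 without the third control. Ferritin FER3 had 425, 506 and 499.8 against 473, 986 and 2047 (-1.05 ± 0.49, adjusted p = 0.637), and its difference was -0.52 without the third control and -1.58 without the first.

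VTL2 (AT1G76800), related to vacuolar iron transporters, had 51.4, 34.7 and 31.3 in ytterbium shoots, 85.5, 52.9 and 54 in lanthanum shoots and 93.9, 81.9 and 109.8 in control shoots (-1.29 ± 0.23, adjusted p = 0.0986). YSL1 (AT4G24120), which moves iron bound to nicotianamine, had 214, 201 and 191 against 249, 287 and 342 (-0.52 ± 0.11, adjusted p = 0.164). Neither overlapped between ytterbium and control. The third control was the highest of the 9 libraries for 7 of these 10 genes, and the list's median was -0.46 without it, against -1.12 without the second control. The part of that library in the result was not tested beyond leaving it out.

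Iron uptake genes of the root were close to the limit of detection in shoots. IRT1 (AT4G19690), the iron carrier of root epidermis, had 3, 2 and 1 reads in ytterbium shoots and 0 in all control libraries, so no fold is given. Of 9 genes in that list, 6 were tested, 0 passed and the median was 0.70, which moved between 0.19 and 1.06 as single libraries were left out. With a minimum value of 10 in 3 libraries, 3 members remained and their median was 0.0125, so the 0.70 rests on genes with few reads. FIT, the master regulator of root iron uptake, had 87.5, 80 and 75.8 in ytterbium shoots and 87, 61.9 and 95.8 in control shoots.

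Around the called iron proteins, related families were drawn up after the values had been seen and are described without a test of the family. Of 5 ferredoxins, FD2 alone passed, while FD1, the minor leaf form, was -0.11 ± 0.12 (adjusted p = 0.849) and FD3, the root form, was 0.23 ± 0.08 (adjusted p = 0.472). Besides SUFB, 11 genes of plastid iron-sulfur cluster assembly were tested, none passed, their median was -0.03 and in none did the groups separate. At an unadjusted p under 0.05, 0 were higher and 0 lower (against 4.6% and 3.84% of all genes). Of 8 ascorbate peroxidases, 7 were tested, all 7 were on the lower side with a median of -0.24 (-0.15 without the second control and -0.37 without the third), and SAPX alone passed. APX1 (AT1G07890), the cytosolic form, had 7378, 7478 and 8241 against 9738, 10969 and 13466 (-0.55 ± 0.11, adjusted p = 0.159).

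Superoxide dismutases use copper and zinc, iron or manganese, and the copper forms and their chaperone were on the lower side. CSD2 (AT2G28190), the chloroplast copper form, had 8165, 10854 and 12699 in ytterbium shoots and 16727, 14046 and 14332 in control shoots (-0.53 ± 0.15, adjusted p = 0.374). CCS, the copper chaperone of these enzymes, had 951, 1205 and 1315 against 1732, 1697 and 1514 (-0.52 ± 0.11, adjusted p = 0.164). FSD1, the iron form that plants use when copper is short, had 1871, 890.3 and 409 against 159, 505 and 788 and overlapped between groups (1.14 ± 0.93, adjusted p = 0.794). In the list of 10 copper genes 0 passed, the median was -0.02 and 3 were below every control (30%, against 7.18% of all genes).

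All 23 members of the photosynthesis list had negative differences in ytterbium shoots, with a median of -0.24 and a range of -0.55 to -0.09. None passed the test under limma, edgeR or DESeq2, and 5 were lower at an unadjusted p under 0.05 (against 3.84% of all genes). The groups separated for 2 (8.7%, against 7.18% of all genes). The median was -0.051 under quantile normalisation, against -0.232 under TMM normalisation, -0.251 with edgeR and -0.249 with DESeq2. The cause of this difference was not tested. The first control library was the highest control for 20 of the 23, and the median was between -0.34 and -0.10 as single libraries were left out. Of 15 nuclear genes of the cytochrome b6f complex, photosystem I and plastocyanin, a set drawn up after the values had been seen, all 15 were on the lower side (median -0.21) and 8 were below every control (53.3%, against 7.18% of all genes). That median was -0.083 under quantile normalisation and -0.2 under TMM normalisation. It was -0.095 without the first control library, which was the highest control for 14 of the 15. PSAN, a lumenal subunit of photosystem I, had 22751, 19128 and 18638 against 31671, 28676 and 25299 (-0.50 ± 0.10, adjusted p = 0.145).

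**Figure D3:**
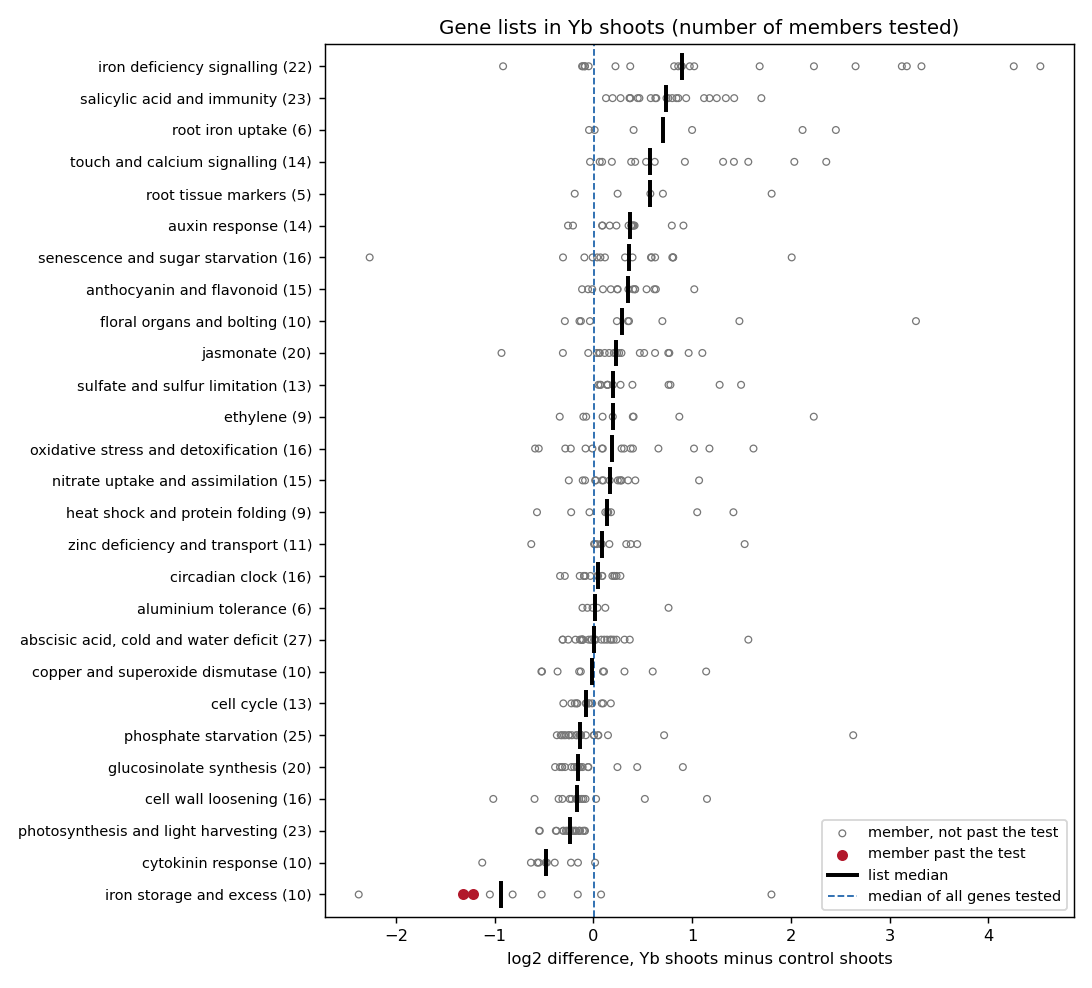
Log2 difference between ytterbium and control shoots for every tested member of 27 gene lists, one list per row with its number of tested members, the list median as a bar and the median of all genes tested (0.00) as a dashed line. The 2 members past the test are NEET and FER4, in the list at the bottom, and the iron deficiency list at the top has the highest median.

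Genes of salicylic acid signalling and immunity were higher in ytterbium shoots without passing the test. All 23 members of that list had positive differences, with a median of 0.74. Limma called 0, edgeR 0 and DESeq2 1, WRKY38 (against 0.223% of all genes called higher). At an unadjusted p under 0.05, 11 were higher (against 4.6% of all genes). The groups separated for 9 members (39.1%, against 6.92% of all genes). PBS3 (AT5G13320), an enzyme of salicylic acid synthesis, had 223, 237 and 234 in ytterbium shoots, 137, 144 and 89.9 in lanthanum shoots and 118, 104 and 192 in control shoots (0.80 ± 0.23, adjusted p = 0.374). Its 3 ytterbium values were close to each other and above every other shoot library. WRKY38 (AT5G22570), a transcription factor of basal defence, had 202, 132 and 199 against 102, 54.6 and 91.5 (1.12 ± 0.26, adjusted p = 0.285), and CBP60G (AT5G26920), a factor that turns on salicylic acid synthesis, had 429.6, 243 and 356 against 226, 113 and 241 (0.86 ± 0.36, adjusted p = 0.587).

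The marker of the pathway, PR1 (AT2G14610), had 372, 276 and 269.9 in ytterbium shoots, 372, 78.4 and 40.2 in lanthanum shoots and 107, 84 and 188 in control shoots (1.34 ± 0.80, adjusted p = 0.703). The first lanthanum library was as high as the first ytterbium library, and the other two were lower. By library, the members' median distance from the control mean was 0.75, 0.68 and 0.82 in ytterbium shoots, 0.10, 0.03 and -0.55 in lanthanum shoots and 0.01, -0.35 and 0.39 in control shoots. Without the second control library the list's median was 0.50 and without the third it was 0.97.

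Touch and calcium genes, which are induced within minutes of handling or of a rise in cytosolic calcium, varied strongly among replicates. The 14 members had a median of 0.58 and 0 passed under limma or DESeq2, with 2 higher at an unadjusted p under 0.05 (against 4.6% of all genes). The median moved to 0.24 without the second control and to 1.03 without the third. TCH4, a cell wall enzyme and a classic touch gene, had 1399, 265 and 644 in ytterbium shoots and 159, 139 and 559.5 in control shoots. CML40, a calmodulin-like protein, had 113, 61.7 and 111 against 24.7, 7.35 and 153, where the third control exceeded all ytterbium libraries.

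Cytokinin response genes were on the lower side. Of 11 members 10 were tested, 9 had negative differences with a median of -0.48 and 6 were below every control (60%, against 7.18% of all genes). Under limma 0 passed, and 7 were lower at an unadjusted p under 0.05 (against 3.84% of all genes). EdgeR called 0 and DESeq2 called 2 as lower (against 0.237%). ARR7 (AT1G19050), a type-A response regulator that is induced by cytokinin and dampens its signal, had 533, 454 and 496 in ytterbium shoots, 455, 444 and 558 in lanthanum shoots and 829.6, 883 and 612 in control shoots (-0.63 ± 0.14, adjusted p = 0.211, and 0.00858 without the third control). ARR6 (AT5G62920), of the same type, had 109, 97.3 and 159 against 236, 374 and 200.1 (-1.13 ± 0.29, adjusted p = 0.349). The list's median stayed between -0.51 and -0.36 whichever library was left out.

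**Figure D4:**
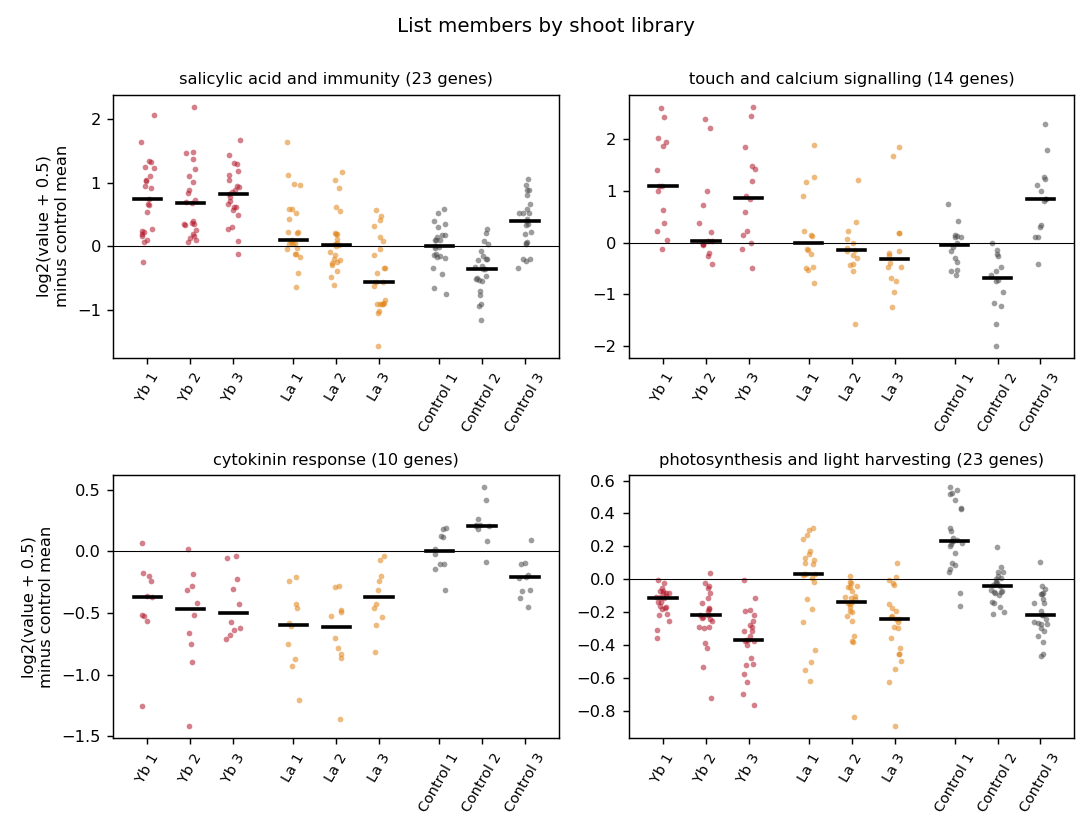
Distance of each list member from its control mean, on the log2(value + 0.5) scale, in every shoot library for immunity, touch and calcium, cytokinin and photosynthesis genes, with the median of each library as a bar. The immunity medians are 0.75, 0.68 and 0.82 in the 3 ytterbium libraries and -0.35 to 0.39 in the controls, while the touch medians overlap between these groups.

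Phosphate starvation genes respond to the lack of phosphate that all groups shared. Of 25 members, 0 passed under limma, edgeR or DESeq2. At an unadjusted p under 0.05, 1 was higher (against 4.6% of all genes) and 2 were lower (against 3.84%). The median was -0.13 and 18 were on the lower side. The sign of that median turned with the controls, at -0.34 without the second and 0.068 without the third. SPX1 (AT5G20150), a sensor of phosphate status, had 3869, 3098 and 3694 in ytterbium shoots and 4073, 3221 and 4868 in control shoots (-0.18 ± 0.14, adjusted p = 0.78). The phosphate transporter PHT1;4 had 435, 323 and 334 against 404, 224 and 514, a difference of 0.00 ± 0.32 (adjusted p = 0.997) whose sign changed with the processing. Among the controls the second library was lowest for 22 of the 25 genes and the third was highest for 17.

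Sulfur genes were all on the higher side, with a median of 0.20 over 13 members and 0 past limma. At an unadjusted p under 0.05, 3 were higher (against 4.6% of all genes), edgeR called 0 and DESeq2 called 1 (against 0.223%). The median was 0.065 without the second control and 0.45 without the third. LSU1, a gene induced by low sulfur, had 125, 61.7 and 127 in ytterbium shoots and 43.5, 13.6 and 71 in control shoots (1.50 ± 0.64, adjusted p = 0.588). SDI2, a repressor of glucosinolate synthesis in low sulfur, had 538, 409.5 and 614 against 309, 241 and 372 (0.76 ± 0.17, adjusted p = 0.274), and APR3, which reduces activated sulfate, had 1314, 1054 and 1402 against 1049, 713 and 1142 (0.39 ± 0.20, adjusted p = 0.654). Only SDI2 of these 3 separated from the controls. Glucosinolate genes had a median of -0.16, with 17 of 20 on the lower side, 4 below every control (20%, against 7.18% of all genes), 1 above (5%, against 6.92%) and 0 past the test. That median was -0.09 without the first control and -0.23 without the third.

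Cell wall loosening genes had a median of -0.17, with 7 of 16 below every control (43.8%, against 7.18% of all genes) and 0 past the test. XTH31, a wall-modifying enzyme, had 954, 814 and 738 against 1237, 1605 and 999.6, without overlap (-0.60 ± 0.17, adjusted p = 0.391). Senescence and sugar starvation genes had a median of 0.36 over 16, with 5 above every control (31.2%, against 6.92% of all genes). Under limma, edgeR and DESeq2 0 passed. Differences ranged from -2.27 to 2.01, 12 of them positive and 4 negative. DIN2, a beta-glucosidase induced by sugar starvation, had 236, 181 and 219 against 51.4, 27.3 and 100.1 (2.01 ± 0.60, adjusted p = 0.472).

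No member of the other lists passed, and many of their medians rest on single libraries. The medians were 0.37 for 14 auxin genes, 0.35 for 15 anthocyanin genes, 0.23 for 20 jasmonate genes, 0.20 for 9 ethylene genes and 0.19 for 16 oxidative stress genes. Of these 16, 10 had positive and 6 negative differences. Above every control were 2 (12.5%, against 6.92% of all genes) and below were 4 (25%, against 7.18%). DESeq2 called 1 of the 16 as lower (against 0.237% of all genes). Nitrate genes had 0.17 over 15 members, heat shock genes 0.14 over 9, zinc genes 0.09 over 11, clock genes 0.04 over 16, abscisic acid and cold genes 0.01 over 27, aluminium tolerance genes 0.02 over 6 and cell cycle genes -0.07 over 13. Leaving out single libraries moved the median of auxin genes between 0.096 and 0.48, of anthocyanin genes between 0.058 and 0.67, of jasmonate genes between 0.047 and 0.39, of ethylene genes between 0.099 and 0.33 and of oxidative stress genes between 0.013 and 0.23. It moved the median of nitrate genes between 0.020 and 0.27, of heat shock genes between -0.075 and 0.42 and of zinc genes between 0.062 and 0.15, while clock genes, abscisic acid and cold genes, aluminium tolerance genes and cell cycle genes stayed between -0.13 and 0.073. ALMT1, the malate channel of aluminium tolerance, had 13.7, 5.78 and 12.2 against 3.96, 8.4 and 5.38 (0.76 ± 0.43, adjusted p = 0.67), and the zinc carrier ZIP9 had 0.857, 1.93 and 0 against 0.989, 2.1 and 1.08, too few reads for a comparison. Floral genes, a marker of stem or flower tissue in the harvest, summed to 632, 644 and 740.1 in ytterbium shoots and 728, 717 and 697 in control shoots. Their median was 0.29 over 10, between -0.013 and 0.82 with single libraries left out, and 4 were on the lower side. Above every control was 1, PI (10%, against 6.92% of all genes), at 6.86, 3.85 and 10.5 against 0, 0 and 1.08. PI could pass the filter only with exposed libraries, so no support is drawn from its direction. The root markers had 0.58 over 5 tested members at low levels, between 0.16 and 1.05 with single libraries left out.

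Ytterbium shoots were compared with lanthanum shoots directly, which uses no control library. Of 21967 genes, 2 passed (0.0091%), 1 higher and 1 lower (0.00455% each). AT3G06070, an uncharacterised gene, had 344, 273 and 338 in ytterbium shoots and 153, 156 and 148 in lanthanum shoots (1.05 ± 0.11, adjusted p = 0.00611), and 255, 216 and 211 in control shoots. It was above the threshold without the third ytterbium library (adjusted p = 0.111), the first lanthanum library (0.061) or the second (0.0829). AT2G44940, an AP2/ERF transcription factor of the DREB group, had 213, 245 and 239 in ytterbium shoots, 449, 352 and 381 in lanthanum shoots and 347, 394 and 349.7 in control shoots. It was lower in ytterbium than in lanthanum shoots (-0.76 ± 0.10, adjusted p = 0.0481), but no longer past the threshold when any 1 of the 6 libraries was left out (0.0668 to 0.314), and its adjusted p against control was 0.0507.

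No member of any list passed between ytterbium and lanthanum. For iron deficiency signalling, 21 of 22 genes were lower in ytterbium than in lanthanum shoots, although 2 were below every lanthanum library (9.09%, against 6.73% of all genes) and the third lanthanum library was the lowest of its group for 18. Against the shared controls, the list's median was 0.89 with ytterbium and 1.34 with lanthanum. In the immunity list, 22 of 23 genes were higher in ytterbium than in lanthanum shoots, 13 of them above every lanthanum library (56.5%, against 7.31% of all genes), with a median of 0.76. Here too the third lanthanum library was the lowest of its group for most members, 19 of 23. The 14 touch and calcium genes were all higher in ytterbium than in lanthanum shoots, with a median of 0.82. Of these, 6 were above every lanthanum library (against 7.31% of all genes), and the third lanthanum library was the lowest of its group for 9. By library, their median distance from the control mean was 1.09, 0.04 and 0.87 in ytterbium shoots.

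Roots collected from the same exposures gave the comparison with the exposed organ. In roots 282 of 22729 genes passed in ytterbium against control (1.24%), 198 higher (0.871%) and 84 lower (0.37%), against 0.041% in shoots. The difference between the effects was tested over the 20981 genes measured in both tissues, and 65 passed (0.31%), 50 with a lower (0.238%) and 15 with a higher effect in shoots (0.0715%). Of these 65, 39 were past the threshold in the root comparison, 4 in the shoot comparison (MEE3, FER4, AT3G43670 and AT3G49160) and 22 in neither. The count was 14 without the third ytterbium shoot library and 369 without the third ytterbium root library.

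MEE3 had 14.3, 9.93 and 11.3 normalised reads in ytterbium roots and 7.76, 3.98 and 6.17 in control roots, which are low levels. Its log2 difference was 0.96 ± 0.38 there and did not pass (adjusted p = 0.248), against -1.20 ± 0.18 in shoots (difference of effects -2.16 ± 0.38, adjusted p = 0.0226). FER4 had 238, 244 and 205 in ytterbium roots and 246, 237 and 274 in control roots, a difference of -0.14 ± 0.11 that did not pass (adjusted p = 0.554), and the effects differed by -1.18 ± 0.21 (adjusted p = 0.0239). AT3G43670 differed by -0.89 ± 0.18 (adjusted p = 0.0385) and AT3G49160 by -1.98 ± 0.40 (adjusted p = 0.0429). All of these genes were named from the shoot comparison, whose libraries also enter this test, so their passing was not independent of that choice. Of the 9 genes that fell in shoots, 7 were tested in both tissues, and for FD2, SUFB and SAPX the effects did not differ past the threshold. NEET and AT1G66100 were not tested in roots.

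BCA3 (AT1G23730), a carbonic anhydrase, had 35.2, 37.6 and 35.7 in ytterbium shoots and 47.5, 59.8 and 67.8 in control shoots (-0.67 ± 0.20, adjusted p = 0.364), against 120.1, 78.4 and 46.1 in ytterbium roots and 12.2, 4.98 and 9.25 in control roots (3.12 ± 0.40, adjusted p = 0.0144). The groups did not overlap in either tissue, with ytterbium low in shoots and high in roots, and the effects differed by -3.79 ± 0.47 (adjusted p = 0.00272). HO4 (AT1G58300), a heme oxygenase, had 3.43, 1.93 and 5.22 in ytterbium shoots against 8.9, 4.2 and 9.68 in control shoots, and 67.7, 67.5 and 167 in ytterbium roots against 8.87, 3.98 and 16.4 in control roots, with effects that differed by -4.38 ± 0.81 (adjusted p = 0.0288).

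The iron deficiency list had a median of 0.89 in shoots and 0.50 in roots, and iron storage had -0.93 in shoots and -0.44 in roots, where 9 of its members were tested. Phosphate starvation genes had -0.13 in shoots and 0.63 in roots, and cytokinin genes had -0.48 and -0.86. The difference between tissues was not tested for whole lists.

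**Figure D5:**
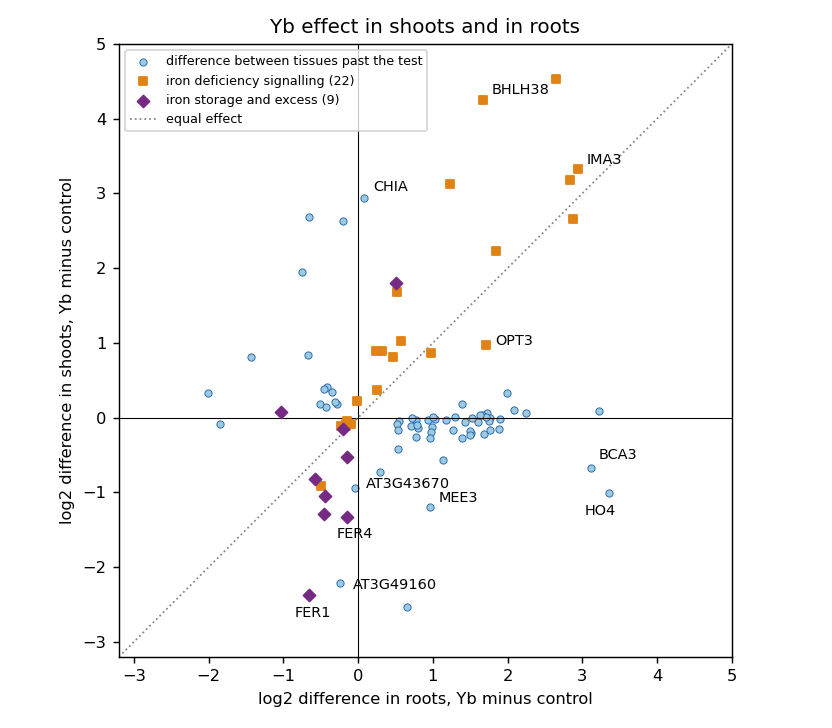
Log2 difference between ytterbium and control in roots (horizontal axis) and in shoots (vertical axis) for the 65 genes whose effects differed between tissues, and for the iron lists; the dotted line marks equal effects. Most of the 65 lie to the right near a shoot difference of 0, while MEE3, AT3G43670 and AT3G49160 lie low with a root difference nearer to 0.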

How the data were processed

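Polyadenylated RNA of roots and shoots was sequenced in 18 stranded paired-end libraries, 3 for each tissue and treatment, per the labels' protocols. HTSeq 0.6.1p1, TopHat2 2.1.1, Trimmomatic 0.36.1 and the build TAIR10 are named per the submitters' processing notes, without their order, and how strand was handled is not given in the sources used here. Each value deposited by the authors is a signal equal to a gene's read count over the size factor of its library, although the table's name points to a length-corrected unit. Every value (100%) was a whole multiple of its library's step within 0.001 reads, which gave back whole reads, 12.44 to 16.35 M per shoot library with size factors of 0.8775 to 1.1662. Roots and shoots were normalised separately by the authors. Replicate shoot libraries differed by more than counting error (chi-square per degree of freedom 3.24 to 12.61). The labels give no batch and do not say that replicates grew in separate containers, so p-values measure the spread between these samples only.

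Values were analysed as log2(value + 0.5) with limma 3.58.1 in R 4.3.3, over all 9 shoot libraries with treatment as the factor, with trended and robust moderation, two-sided tests and Benjamini-Hochberg adjustment. The difference between tissues was fitted over all 18 libraries, with no pairing of root and shoot libraries. Because reads could be recovered, edgeR 4.0.16 (quasi-likelihood) and DESeq2 1.42.0 were run as alternatives and called 10 and 101 genes. Fold changes are on the log2(value + 0.5) scale, which understates the change of low genes, and ratios of means are of normalised reads. Other alternatives were the pseudocount, the filter, the normalisation, the moderation, a replicate block, library weights, the 6 libraries compared alone and leaving out each library. The scripts were tested on simulated data.

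Gene names came from a RefSeq table of TAIR10.1, in which 28781 of the 28991 genes matched by locus, and that table was used for names and neighbours only. The 27 gene lists held 414 loci, of which 394 were tested. A further 2 were dropped because the annotation gives them another symbol, and 12 carry the list's name because the annotation gives none. Named genes were up to 10 called rises and 10 called falls by size, given groups that do not overlap and a mean of 10 or more in the higher one (filled to 6 by the smallest p where fewer), the 3 smallest p of the lists with members past the threshold, a panel of 9 genes, and the 3 largest in each direction for the other contrasts. Other list members were named after their values were seen. The members and lists were chosen with earlier results of these data known. Intervals of read ratios cover counting error only.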

Additional observations from a re-analysis of the deposited data

Results flagged for a closer look

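The effect of ytterbium differed between shoots and roots, by limma's test of the difference itself, for 6 of the named genes. BCA3 and HO4 were named from genes past this same test, so their passing was fixed by that choice. MEE3, FER4, AT3G43670 and AT3G49160 were named from the shoot comparison. The same ytterbium and control shoot libraries enter this test, so the passing of these genes was not independent of that choice. Relative to roots, the shoot effect differed by -3.79 on the log2 scale for BCA3 (adjusted p = 0.00272), by -4.38 for HO4 (adjusted p = 0.0288), by -2.16 for MEE3, by -1.18 for FER4, by -0.89 for AT3G43670 and by -1.98 for AT3G49160. BCA3 remained past the threshold under all 21 alternatives run for it and HO4 under 14 of 20.

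A further 4 genes met the same test with very few reads in shoots. Each had 0 reads in 1 of the 2 shoot groups and was kept by the filter through the libraries where it was read, so the direction in shoots was fixed and no support is drawn from their p-values. The fitted values depend on the pseudocount and are no bound. AT5G23700 differed by -3.18, with 0, 0 and 0 reads in ytterbium shoots and 2, 2 and 3 in control shoots. CHIA, a chitinase, differed by 2.86, with 5, 2 and 5 reads in ytterbium shoots and 0 in every control. PHT1;1, a phosphate transporter nearly identical to PHT1;2, differed by 2.84, with 3, 2 and 4 reads against 0, and FLS5, related to flavonol synthases, by 3.34, with 4, 1 and 6 reads against 0. Of 20 alternatives each, AT5G23700 stayed past the threshold under 7, FLS5 under 9, PHT1;1 under 13 and CHIA under 17.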

How the results depend on the processing

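For ytterbium against control in shoots, the 9 calls became 2 without a trend in the moderation (1 higher and 1 lower, 0 of the 9 among them), 14 with library weights (2 higher), 13 with the 6 libraries alone (8 higher, 4 of the 9 shared), 101 with DESeq2 and 34 with the replicate number as a block (12 higher, 3 of them in the iron deficiency list), and 1 to 166 when single libraries were left out. All 9 were among the calls with library weights, with DESeq2 and with the replicate block. For ytterbium against lanthanum, the 2 calls became 1 with a pseudocount of 0.1, without the filter, with a minimum value of 10 or with TMM, 4 without a trend, 30 with the replicate block, 32 with library weights, 70 with the 6 libraries alone and 83 with DESeq2, and 0 to 2 with single libraries left out. The 65 differences between tissues became 28 without a trend and 285 with library weights, and 14 to 369 with single libraries left out. Over all genes tested, shoot libraries of the same replicate number had deviations that correlated by -0.08 to 0.06, against -0.11 to 0.12 for different numbers. No pairing by number was thus seen over all genes, and pairing that affects only some genes was not tested. Pairing of root with shoot libraries was not tested. PHT1;4, at 0.00 with no call, was -0.021 with quantile normalisation, -0.090 with library weights, -0.064 with edgeR, -0.065 with DESeq2, and -0.34 (without the second control) to 0.26 (without the third) with single libraries left out. Over all results and alternatives, 955 kept their direction and side of the threshold, 100 lost and 30 gained a call, 54 moved and 6 turned round, and the cause was not tested. Depth limits BHLH38, BHLH39, BHLH100 and IRT1, with at most 2 control reads each.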

Other observations

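DESeq2's 101 calls reach genes outside the lists, and the following were chosen after their values were seen. Some encode further iron proteins of the chloroplast, all lower in ytterbium than in control shoots without overlap and none past limma. ENH1 (AT5G17170), a rubredoxin family protein, had 1953, 1665 and 2071 in ytterbium shoots and 2662, 3214 and 4102 in control shoots (DESeq2 adjusted p = 0.000909, limma 0.322). Another of that family, AT5G51010, had 846, 888 and 912 against 1189.5, 1432 and 1499 (DESeq2 adjusted p = 0.000249, limma 0.092), and SIR (AT5G04590), the sulfite reductase, which carries siroheme and an iron-sulfur cluster, had 3835, 3767 and 3795 against 4816, 4709 and 4499 (DESeq2 adjusted p = 0.0012, limma 0.196).

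On the higher side, AOX1D (AT1G32350), an alternative oxidase of mitochondria, had 24.9, 25.1 and 47.9 in ytterbium shoots and 1.98, 5.25 and 7.53 in control shoots (DESeq2 adjusted p = 0.00385, limma 0.139). ORG1 (AT5G53450) had 2611, 3192 and 2896 in ytterbium shoots, 5170.3, 4879 and 2464 in lanthanum shoots and 1115, 1043 and 977 in control shoots (DESeq2 adjusted p = 0.000167, limma 0.247). BT5 (AT4G37610), a BTB and TAZ domain protein, had 389, 168 and 194 in ytterbium shoots, 72.9, 73.3 and 45.5 in lanthanum shoots and 92.9, 56.7 and 56 in control shoots (DESeq2 adjusted p = 7.41e-06, limma 0.211), where the 3 ytterbium libraries exceeded every lanthanum and control library.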
